A study of Mus musculus with 27 samples.

Results

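The 10 genes described here encode the enzymes of de novo purine synthesis and were taken by name from the count tables: Ppat, Gart, Pfas, Paics, Adsl and Atic of the common pathway, Adss of the AMP branch, and Impdh1, Impdh2 and Gmps of the GMP branch. All 10 were found among the 54532 genes of the tables, and all 10 had enough counts to be tested in every comparison. They were set against Cad and Dhodh, genes of de novo pyrimidine synthesis, to ask whether disulfiram (DSF) acted on the pyrimidine genes alone. The members were listed by pathway and not by a measured value, but with earlier results of these data known. From these data the study had already reported lower expression of de novo pyrimidine genes with DSF.

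Purines are built on ribose. PPAT, the first committed step, moves an amino group from glutamine onto phosphoribosyl pyrophosphate (PRPP). GART, a trifunctional protein, and PFAS, PAICS, ADSL and ATIC then assemble the ring of inosine monophosphate (IMP). ADSS, followed by ADSL, turns IMP into AMP, whereas IMPDH1 or IMPDH2, followed by GMPS, turns it into GMP. Lymphocytes that leave rest depend on this pathway, and IMPDH is the target of mycophenolate, a drug used against graft rejection. CAD, a trifunctional protein, carries out the first steps of pyrimidine synthesis, DHODH the oxidation of dihydroorotate in mitochondria, and UMPS the last steps to UMP.

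Wild-type B cells were prepared from spleens of C57BL6 mice by negative selection and cultured for 3 h, and RNA was sequenced after poly-T selection. The study gives age and sex for the mice of its transplant experiments and names none for the donors of these B cells. The first experiment had 5 groups of 4 libraries. B cells were left unstimulated, stimulated with LPS, a T-independent stimulus, or stimulated with IL-4+anti-CD40, a T-dependent stimulus. The remaining groups had 1 μM DSF, an anti-alcoholism drug, and either LPS or IL-4+anti-CD40. All groups without an inhibitor received DMSO, the vehicle. The second experiment had 7 conditions with 1 library each. They were the same 5 and each stimulus with 1 μM ibrutinib, an inhibitor of the kinase BTK. Figure legends of the study call the B cells with either inhibitor pre-treated, and how long before the stimulus is not stated. The study calls the samples biologically independent, but whether each came from a mouse of its own is not stated, so p-values measure the spread between these samples.

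The 20 libraries of the first experiment held 17804851 to 23632992 counts, and the 7 of the other 16049295 to 24619776. Unstimulated libraries fell into pairs. Over 15575 genes, the deviations from the group mean correlated at 0.78 between replicates 1 and 2 and at 0.73 between replicates 3 and 4, and from -0.88 to -0.87 across the pairs, where 4 deviations sum to 0 by construction. Replicates 1 and 2 held 41.8 and 40.7 counts per 1000000 of 4 neutrophil markers against 8.93 and 13.4 in replicates 3 and 4, but 3.06 and 2.14 of 4 erythroid markers against 14.5 and 16.8. Replicates 1 and 2 of the IL-4+anti-CD40 group also stood together (0.23), apart from replicates 3 and 4 (-0.67 to -0.51). No label names a batch, and the part of these differences in the results was not tested. Values with only replicates 1 and 2, or only 3 and 4, of both groups are given for calls that changed and for some values that moved. For such fits only the members were counted, and the share of all genes called was not. The 6 B cell markers were present in all libraries. In unstimulated B cells they summed to 6324 and 6257 counts per 1000000 in replicates 1 and 2. Replicates 3 and 4 held 9321 and 9413. The same markers summed to 4294 to 4413 with LPS and 4177 to 4653 with IL-4+anti-CD40. With DSF they were at 2663 to 2732 and 2956 to 3149. Summed T cell markers stayed at or below 8.11, NK markers at or below 2.56, and Ly6g of the neutrophil list never passed 10 counts. The 5 myeloid markers summed to 613 to 732 in unstimulated B cells and to 126 to 252 in the other groups. In such bulk samples, fewer cells of a type and less RNA per cell cannot be told apart.

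Stretches of RefSeq sequence around the gene starts (GRCm38.p6, 250 bases before to 50 after the start) are shown for 5 members: Gart, which fell most with DSF, the head-to-head pair Ppat and Paics, and Atic and Impdh2, which together with Paics hold the E-box CACGTG, the site bound by MYC with MAX, in capitals. The sequences run 5′ to 3′ on the strand of the gene.
Gart, chr16:91646923-91647222, minus strand: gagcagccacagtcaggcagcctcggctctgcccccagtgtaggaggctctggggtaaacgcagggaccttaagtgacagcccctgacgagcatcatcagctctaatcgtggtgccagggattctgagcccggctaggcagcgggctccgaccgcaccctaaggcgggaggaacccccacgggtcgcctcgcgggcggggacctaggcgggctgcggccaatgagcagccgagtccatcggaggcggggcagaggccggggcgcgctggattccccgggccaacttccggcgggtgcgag
Ppat, chr5:76951529-76951828, minus strand: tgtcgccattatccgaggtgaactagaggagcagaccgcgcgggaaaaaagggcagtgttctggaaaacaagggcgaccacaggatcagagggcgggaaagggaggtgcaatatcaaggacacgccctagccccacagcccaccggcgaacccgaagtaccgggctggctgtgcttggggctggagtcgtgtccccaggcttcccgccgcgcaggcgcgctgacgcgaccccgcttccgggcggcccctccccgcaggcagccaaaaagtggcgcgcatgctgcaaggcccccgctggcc
Paics, chr5:76951052-76951351, plus strand: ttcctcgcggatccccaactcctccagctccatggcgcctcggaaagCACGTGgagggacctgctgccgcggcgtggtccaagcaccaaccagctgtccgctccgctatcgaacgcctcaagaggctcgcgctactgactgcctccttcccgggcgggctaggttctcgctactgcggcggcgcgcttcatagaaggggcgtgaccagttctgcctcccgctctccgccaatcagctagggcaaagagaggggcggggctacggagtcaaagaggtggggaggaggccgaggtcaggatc
Atic, chr1:71556906-71557205, plus strand: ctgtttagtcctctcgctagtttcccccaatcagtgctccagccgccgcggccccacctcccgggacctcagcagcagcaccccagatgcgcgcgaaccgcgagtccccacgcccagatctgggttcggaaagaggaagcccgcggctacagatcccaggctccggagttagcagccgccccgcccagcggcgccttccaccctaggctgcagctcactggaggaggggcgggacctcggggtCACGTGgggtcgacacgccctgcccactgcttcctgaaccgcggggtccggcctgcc
Impdh2, chr9:108560186-108560485, plus strand: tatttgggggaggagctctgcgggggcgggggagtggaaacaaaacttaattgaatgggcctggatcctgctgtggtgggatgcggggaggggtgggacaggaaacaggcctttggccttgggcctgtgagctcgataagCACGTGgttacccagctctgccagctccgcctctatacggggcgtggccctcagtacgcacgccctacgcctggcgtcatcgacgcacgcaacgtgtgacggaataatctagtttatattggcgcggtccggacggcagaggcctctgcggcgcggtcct

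Of the 10 members, 9 had such a promoter in the table, with 2 for Impdh1. The palindrome CACGTG stood in 3 of these 10 promoters and in 7.15% of all 32851 promoters of the same length. It began at position -203 from the gene start in Paics, at -110 in Impdh2 and at -7 in Atic, counted from the RefSeq start. In Impdh2 and Atic that start lies inside the gene as the deposited tables place it. The E-box of Impdh2 therefore falls within the annotated gene, and that of Atic overlaps the annotated gene start at 71557150. The motif TGATGCAA, read on both strands and known from ATF4-bound elements, was in none of the 10 and in 0.895% of all. A match describes the letters in the window and is not a measured site. The Paics window lies inside the 5′ part of Ppat, since Ppat, on the minus strand of chromosome 5 (76913249 to 76951578), and Paics, on the plus strand (76951307 to 76967509), overlap by 272 bases at their 5′ ends (positions as in the deposited tables, mm10). Whether the counting used strand is not stated, so reads in the overlap could have been given to either gene or to neither. Impdh2 on chromosome 9 (108560286 to 108565584) overlaps Ndufaf3 on the other strand, and Gart on chromosome 16 (91621186 to 91646952) overlaps the antisense gene Gm15964. Adsl and Adss each hold a processed pseudogene, Ppat also an antisense gene, and Pfas a small nuclear RNA and a miRNA gene. Atic, Impdh1 and Gmps overlap no other gene of the table.

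Per length, the members spanned a wide range of levels before stimulation. The deposited FPKM, which scale fragments by gene length and library size, placed Impdh2 (39.3 ± 6.06, SD, n = 4) and Paics (37.5 ± 3.25) at the top in unstimulated B cells, and their ranges overlapped. Adss (24.1 ± 5.33) and Gart (18.4 ± 3.71) followed, again with overlapping ranges. Atic (12.5 ± 1.60), Impdh1 (12.1 ± 5.05), Adsl (10.5 ± 1.64) and Ppat (10.1 ± 1.99) were not separated beyond their spread. Gmps (7.22 ± 0.77) and Pfas (7.18 ± 1.53) had the lowest levels. With LPS the order was Impdh2 (70.6 ± 1.08), Paics (50.8 ± 2.45), Adss (40.0 ± 2.35), Gart (37.0 ± 1.498), Ppat (30.1 ± 0.84), Atic (23.7 ± 0.76), Impdh1 (23.4 ± 0.62), Adsl (20.01 ± 0.61), Pfas (17.8 ± 0.92) and Gmps (11.9 ± 0.11), where the ranges of Adss and Gart and those of Atic and Impdh1 overlapped. Ppat, from the lower part of the list, had thus passed Atic, Impdh1 and Adsl. Cad was at 14.3 ± 3.19 FPKM before and 25.4 ± 1.59 after LPS, and Dhodh, at 3.62 ± 0.15 and 4.11 ± 0.23, lay below every member.

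Both stimuli raised all 10 members within 3 h. Values below are counts per 1000000 after TMM scaling between libraries (CPM), which compare libraries for 1 gene, and folds come from edgeR's quasi-likelihood test, 4 against 4 libraries, adjusted over all genes tested. With LPS 10 of 10 members rose, against 29.6% of the 14477 genes tested. So did 10 of 10 under IL-4+anti-CD40, against 30.4% of 14433. Every stimulated library was above every unstimulated one for all 10 members, which held for 29.5% of genes in the LPS comparison and 27.8% in that of IL-4+anti-CD40. In the same order, the members' median change was 0.95 and 1.20 on the log2 scale, and that of all genes tested -0.046 and -0.041. Scaling by total counts in place of TMM moved the median gene by -0.23 and -0.15, and left the members' medians at 0.72 and 1.04.

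**Figure D1:**
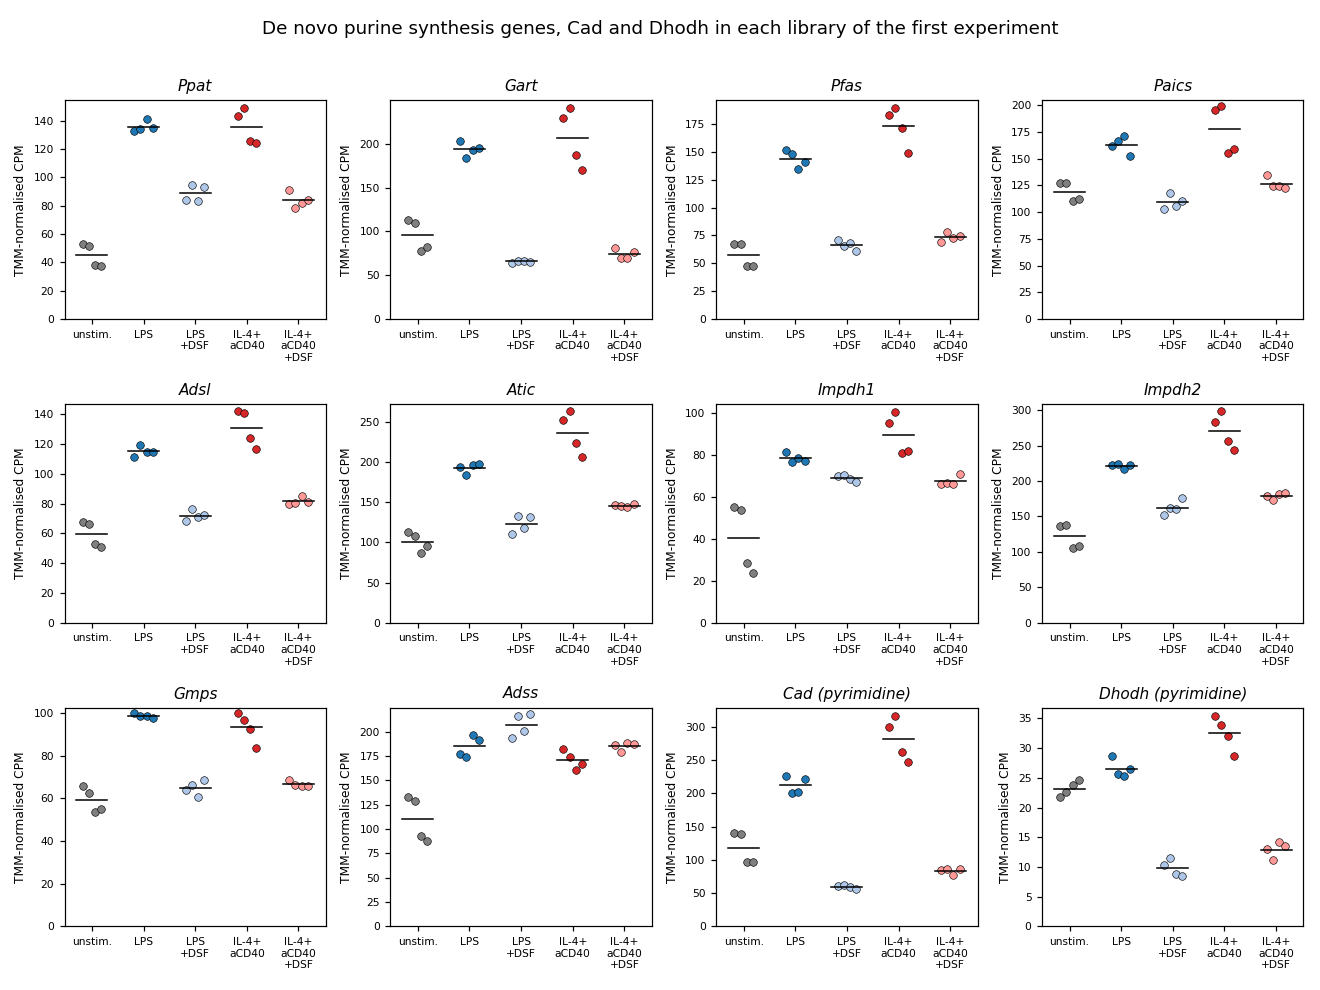
Level of each purine gene, and of Cad and Dhodh, in the 20 libraries of the first experiment, as TMM-normalised CPM on a linear axis from 0. Points are libraries in the order of their replicate numbers, lines are group means, and aCD40 stands for anti-CD40. Stimulated libraries without DSF lie above the unstimulated ones for every purine gene, and with DSF 9 of the 10 lie lower again, whereas Adss does not.

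Ppat, the entry step, rose most with LPS. It was at 53.3, 51.4, 38.2 and 37.3 CPM in unstimulated replicates 1 to 4 and at 133, 134, 141 and 135 CPM with LPS, a 3.02-fold rise (log2 1.59, SE 0.12, adjusted p = 1.00e-05). With IL-4+anti-CD40 Ppat was at 144, 149, 126 and 124 CPM, a 3.13-fold rise (log2 1.64, SE 0.14, adjusted p = 1.79e-05). The lowest stimulated library was thus far above the highest unstimulated one. Pfas, which adds the second glutamine nitrogen, was at 67.7, 67.7, 47.2 and 47.6 CPM unstimulated, at 152, 148, 135 and 141 CPM with LPS and at 183, 189, 172 and 149 CPM with IL-4+anti-CD40, rises of 2.50-fold and 3.13-fold (log2 1.32 and 1.65, SE 0.13 and 0.15). Gart was at 113, 110, 77.5 and 82.7 CPM unstimulated, at 204, 184, 194 and 195 CPM with LPS and at 229, 241, 188 and 170 CPM with IL-4+anti-CD40, rises of 2.03-fold and 2.25-fold (log2 1.02 and 1.17). In all 3 genes the unstimulated replicates 1 and 2 were above replicates 3 and 4.

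Adsl (log2 0.95 with LPS and 1.19 under IL-4+anti-CD40) and Atic, which closes the ring (0.94 and 1.29), rose by amounts near the median of the members. Paics rose least with both stimuli, by 0.46 and 0.63 on the log2 scale (1.37-fold and 1.55-fold), from 110 to 127 CPM unstimulated to 152 to 171 CPM and 155 to 199 CPM. In the GMP branch the log2 fold changes were 0.97 and 1.21 for Impdh1, 0.86 and 1.20 for Impdh2 and 0.74 and 0.71 for Gmps. Impdh1, at 55.1, 53.8, 28.6 and 23.8 CPM unstimulated, had the largest SE (0.25 and 0.26). Adss of the AMP branch rose by 0.75 and 0.69. Cad rose by 0.85 and 1.31. Dhodh rose by 0.20 (SE 0.074, adjusted p = 0.042) and 0.54, and the first of these calls was lost in 5 of 8 fits without 1 library, with no filter on low counts (adjusted p = 0.11), with all 20 libraries in 1 fit (adjusted p = 0.073) and with replicates 3 and 4 (adjusted p = 0.070), and turned to -0.027 with total counts. With only replicates 1 and 2, or only 3 and 4, of the unstimulated and IL-4+anti-CD40 groups, 10 of 10 members still rose with each stimulus, but by different amounts. Impdh1 rose with LPS by 0.53 against replicates 1 and 2 and by 1.61 against replicates 3 and 4, Adss by 0.51 and 1.06 and Ppat by 1.38 and 1.87. In the same order Pfas rose by 1.09 and 1.63, Gart by 0.80 and 1.31 and Cad by 0.60 and 1.17.

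**Figure D2:**
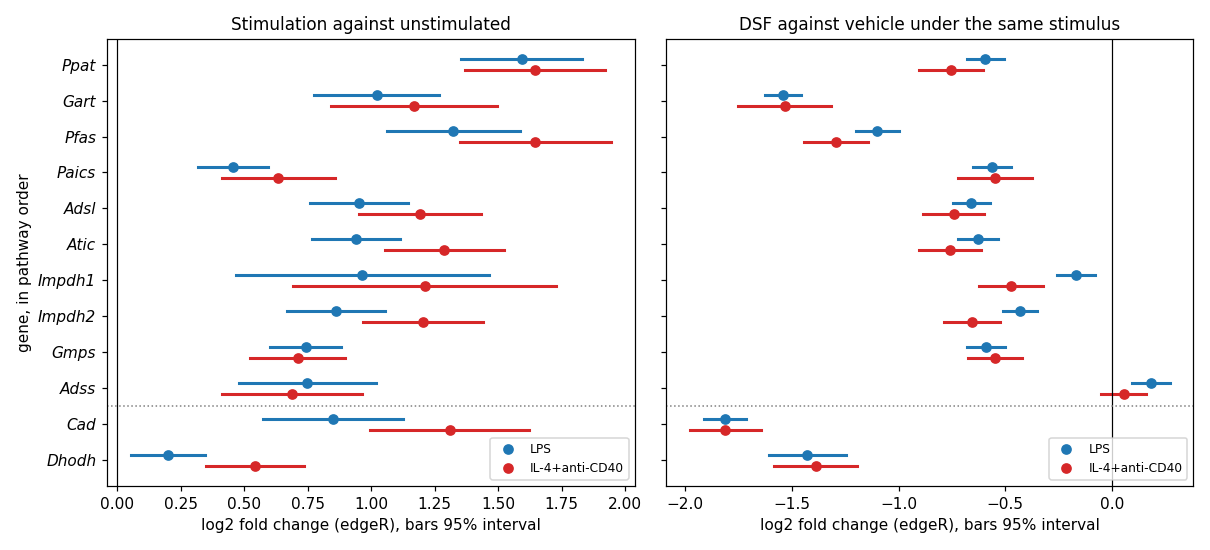
Log2 fold changes from edgeR with 95% intervals (normal approximation from the SE), genes in pathway order, Cad and Dhodh below the dotted line. The left panel gives each stimulus against unstimulated B cells and the right panel DSF against vehicle under the same stimulus, each from 4 against 4 libraries. All 10 purine genes lie right of 0 on the left, and on the right Gart and Pfas lie nearest to Cad and Dhodh while Adss lies at 0.18 and 0.054.

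Between LPS and IL-4+anti-CD40 the members differed by -0.29 to 0.12 on the log2 scale. By edgeR 0 were higher with LPS (also 0 at an unadjusted p under 0.05, and 0 by DESeq2), against 22.3% of 14078 genes. With LPS 3 were lower than with IL-4+anti-CD40, against 17.3%: Atic (-0.29, SE 0.074), Impdh2 (-0.29, SE 0.065) and Pfas (-0.26, SE 0.074). Cad (-0.40, SE 0.082) and Dhodh (-0.29, SE 0.080) were lower as well. Dhodh lost this call with IL-4+anti-CD40 replicates 3 and 4 only (-0.19, edgeR adjusted p = 0.069). The count of members also depended on the libraries used. Against IL-4+anti-CD40 replicates 1 and 2, 7 members were lower with LPS. Against replicates 3 and 4, 3 were lower and 2 higher (Gmps and Adss). The share of all genes called in these fits was not counted.

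DSF lowered 9 of the 10 purine genes under each stimulus. The comparisons share no library. In LPS-stimulated B cells 9 members fell, against 36% of the 14154 genes tested, and 1 rose, against 35.1%. In B cells given IL-4+anti-CD40 9 fell, against 31.6% of 14275, and Adss did not pass the threshold. For these 9 members, every library with DSF was below every library without it under both stimuli, which held for 33.8% and 26.5% of genes. Under LPS and IL-4+anti-CD40 in turn, the members changed by a median of -0.59 and -0.70 on the log2 scale, and all genes tested by 0.0019 and -0.015. Total counts moved the median gene by -0.21 and -0.15, and gave members' medians of -0.80 and -0.85. Beside this, the 6 B cell markers were lower in 6 of 6 with LPS and in 4 of 6 with IL-4+anti-CD40, where 1 was higher. Other marker lists went both ways with DSF. Of 4 plasma cell markers, 3 were higher and 1 was lower under LPS. Under IL-4+anti-CD40 2 of the 4 were higher, where 30.1% of all genes were. Under LPS the plasma cell markers summed to 234 to 250 counts per 1000000 without and 305 to 325 with DSF. The 1 T cell marker tested under LPS was lower (-1.41). Of 3 neutrophil markers tested, 2 were higher under LPS and 1 under IL-4+anti-CD40, and of 5 myeloid markers 1 was higher and 1 lower under LPS and 3 were higher under IL-4+anti-CD40. Whether they have a part in the members' fall was not tested.

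Gart fell most. In LPS-stimulated B cells it was at 204, 184, 194 and 195 CPM without and at 64.4, 66.7, 66.8 and 65.5 CPM with DSF, a 2.91-fold fall (log2 -1.54, SE 0.043, adjusted p = 2.17e-20). Under IL-4+anti-CD40 it was at 229, 241, 188 and 170 CPM without and at 81.3, 69.7, 70.2 and 76.9 CPM with DSF, a 2.90-fold fall (log2 -1.53, SE 0.11, adjusted p = 1.35e-06). All 8 libraries with DSF were below even the unstimulated replicates except the highest, at 81.3 CPM, which was above unstimulated replicate 3. Ranked among all genes tested, this fall stood at the 1.35th percentile with LPS and the 1.05th under IL-4+anti-CD40. Pfas was the second, at 70.6, 65.8, 67.9 and 61.1 CPM with LPS and DSF and at 69.5, 77.7, 72.9 and 74.8 CPM with DSF under IL-4+anti-CD40, falls of 2.14-fold (log2 -1.10, SE 0.051) and 2.45-fold (log2 -1.29, SE 0.077). These were the only members whose fall passed 2-fold under either stimulus.

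A middle group fell by 1.46-fold to 1.69-fold. The log2 fold changes, LPS first, were -0.59 and -0.75 for Ppat, -0.56 and -0.55 for Paics, -0.66 and -0.74 for Adsl, -0.63 and -0.76 for Atic and -0.59 and -0.55 for Gmps, with SE between 0.044 and 0.088. Ppat, for example, was at 83.9, 94.6, 83.4 and 93.4 CPM with LPS and DSF and at 91.2, 78.1, 81.7 and 84.2 CPM with DSF under IL-4+anti-CD40, between its unstimulated and stimulated levels in every library. Impdh2, the main IMP dehydrogenase by FPKM, fell by 0.43 and 0.66, from 217 to 225 CPM to 153 to 175 CPM with LPS and from 244 to 299 CPM to 174 to 183 CPM with IL-4+anti-CD40. Impdh1 fell least, by 0.17 (SE 0.045, adjusted p = 0.0017) and 0.47 (SE 0.077, adjusted p = 0.00026). Under IL-4+anti-CD40 the sizes also depended on the pair of libraries, with -0.71 and -0.35 for Paics and -0.61 and -0.31 for Impdh1 from replicates 1 and 2 and from 3 and 4. With all 20 libraries in 1 fit, neither fall of Impdh1 passed the threshold (adjusted p = 0.40 and 0.059).

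Adss was the exception. It was at 178, 174, 197 and 192 CPM with LPS and at 194, 216, 201 and 218 CPM with LPS and DSF, and at 183, 174, 161 and 167 CPM with IL-4+anti-CD40 and at 186, 179, 189 and 187 CPM with DSF added. The groups overlapped under both stimuli. The rise of 0.18 with LPS (SE 0.045, adjusted p = 0.0011) was lost in the fit of all 20 libraries (adjusted p = 0.18) and turned to -0.029 with total counts. The value under IL-4+anti-CD40 (0.054, SE 0.054, adjusted p = 0.41) became -0.095 with total counts, -0.016 with IL-4+anti-CD40 replicates 1 and 2 and 0.14 (adjusted p = 0.037) with replicates 3 and 4. The 95% intervals, from 0.091 to 0.27 and from -0.052 to 0.16, lay above those of the 9 other members under both stimuli. All these intervals use a normal approximation from the SE, so with few libraries they are somewhat too narrow.

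In the first experiment the purine genes fell less than Cad. Cad was at 226, 200.5, 201 and 222 CPM with LPS and at 60.7, 62.7, 59.4 and 56.1 CPM with DSF added, and at 300.1, 316, 263 and 247 CPM with IL-4+anti-CD40 and at 85.2, 86.6, 76.8 and 85.7 CPM with DSF added, falls of 3.51-fold each (log2 -1.81, SE 0.050 and 0.085). Dhodh, at 28.7, 25.7, 25.3 and 26.5 CPM with LPS, was at 10.3, 11.5, 8.75 and 8.44 CPM with DSF added, and it went from 35.5, 33.8, 32.0 and 28.6 to 13.0, 11.1, 14.2 and 13.5 CPM under IL-4+anti-CD40, falls of 2.69-fold and 2.62-fold (log2 -1.43 and -1.39). Both genes were below all 4 unstimulated libraries in every library with DSF. Umps, the gene of the last pyrimidine steps, fell by 0.47 and 0.62, which is within the range of the purine genes. Its difference from them was not tested.

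Members were then counted against Cad and Dhodh within each library, which removes the scaling between libraries. In an edgeR fit with the count of Cad as the library size, 10 of 10 members fell less than Cad under both stimuli, which also held for 97.8% of all other genes tested under LPS and for 97.8% under IL-4+anti-CD40. With Dhodh in its place, 9 members fell less with LPS, against 93.4% of genes, and 8 with IL-4+anti-CD40, against 93.6%. These shares are near the background, so the counts say little about purine genes in particular. The p-values of these fits are too small, since the noise in the reference gene is shared by all genes, and exact permutation of the within-library log2 ratios is given instead (two-sided, n = 4 against 4, smallest possible p = 0.0286).

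Gart came nearest to Cad. Its log2 count ratio to Cad was -0.18 to -0.057 with LPS and 0.085 to 0.22 with DSF added, a difference of 0.27 (exact permutation p = 0.0286), and -0.54 to -0.39 against -0.31 to -0.067 with IL-4+anti-CD40, a difference of 0.28 (p = 0.0286, exact). The groups did not overlap, although Gart fell only a little less than Cad. To Dhodh the ratio of Gart was 2.83 to 2.93 with LPS and 2.53 to 2.95 with DSF added, a difference of -0.11 (exact p = 0.40), and the difference with IL-4+anti-CD40 was -0.13 (exact p = 0.29). The 95% intervals of these differences in the edgeR fit ran from -0.35 to 0.16 and from -0.35 to 0.088. A fall of Gart equal to that of Dhodh, or somewhat larger or smaller, lies inside them. These intervals come from the fits whose p-values are too small, so they may be too narrow. For Pfas the difference to Dhodh was 0.34 with LPS (exact p = 0.0571) and 0.10 with IL-4+anti-CD40 (exact p = 0.54), with overlapping groups in both. The other 8 members had ratios to Dhodh and to Cad that did not overlap between the groups. Their differences ran from 0.64 to 1.62 to Dhodh and from 1.05 to 1.99 to Cad (exact p = 0.0286 for each), with Adss the highest. The share of all genes whose ratios did not overlap was not counted. In the fits above most genes fell less than Cad or Dhodh, so these values do not set the 8 members apart. Dhodh itself fell less than Cad, by 0.38 and 0.42 (exact p = 0.0286).

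**Figure D3:**
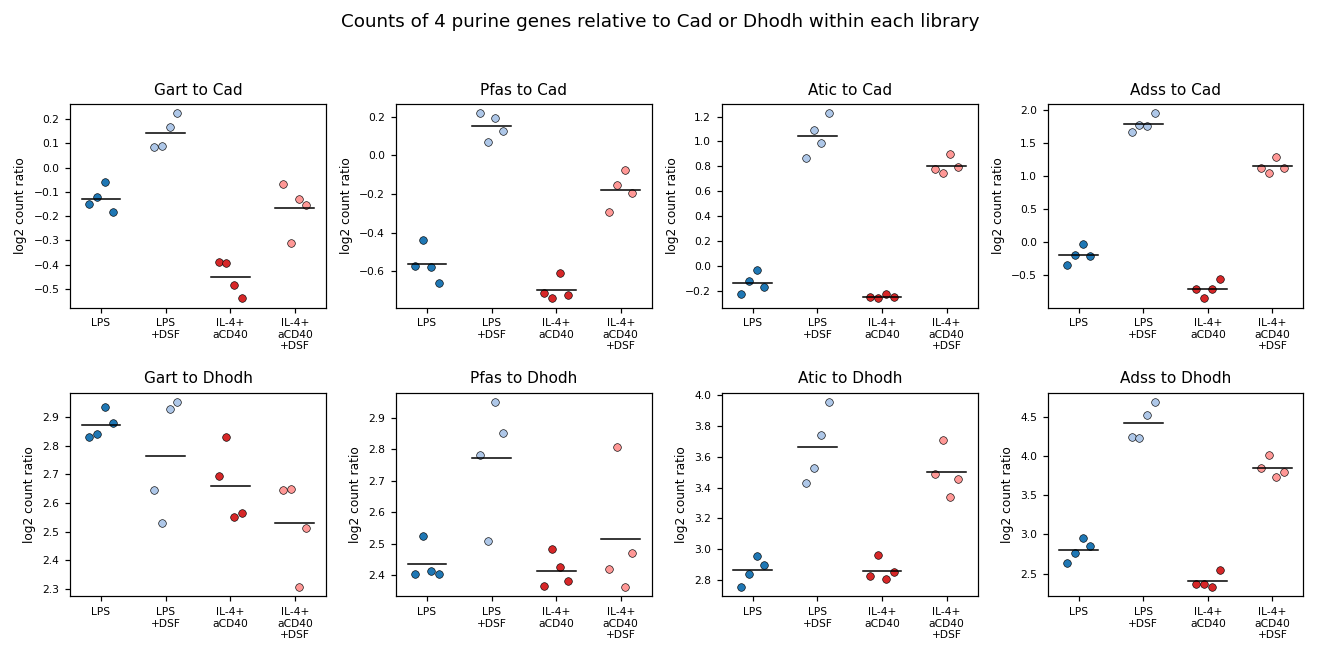
Log2 ratio of the count of Gart, Pfas, Atic or Adss to that of Cad (upper row) or Dhodh (lower row) in each stimulated library of the first experiment, with 0.5 added to each count. Points are libraries, lines are group means, and aCD40 stands for anti-CD40. The ratios to Cad are higher with DSF in all 4 genes, whereas those of Gart and Pfas to Dhodh overlap between libraries with and without DSF.

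Libraries with a stimulus and DSF were also set against rest. Against unstimulated B cells, which also served as controls above, 6 members were higher with LPS and DSF (34.3% of 14663 genes) and 1 was lower (37.3%), and 7 were higher with IL-4+anti-CD40 and DSF (33.4% of 14678) and 1 was lower (35.3%). The lower gene was Gart in both, by 0.55 (SE 0.13, adjusted p = 0.0037) and 0.36 (SE 0.13, adjusted p = 0.038). Cad was lower by 0.99 and 0.50 and Dhodh by 1.26 and 0.84. Ppat (0.97 and 0.90), Adss (0.90 and 0.75), Impdh1 (0.77 and 0.74), Impdh2 (0.40 and 0.56), Atic (0.28 and 0.54) and Adsl (0.26 and 0.46) were higher in both, and Pfas passed under IL-4+anti-CD40 (0.36, adjusted p = 0.039). Several of these calls were fragile. With no filter on low counts, Adsl (adjusted p = 0.20) and Atic (adjusted p = 0.15) lost theirs under LPS and DSF and Pfas its own (adjusted p = 0.083). Without 1 library, Adsl lost it in 6 of 8 fits, Atic in 4 and Pfas in 6, and Impdh1 in 5 of 8 under IL-4+anti-CD40 and DSF. Scaling by total counts, which moved the median gene by -0.41 and -0.31, left 2 members higher in each comparison and 3 and 2 lower. From unstimulated replicates 1 and 2 to replicates 3 and 4, the members higher went from 4 to 8 under LPS and DSF and from 6 to 9 under IL-4+anti-CD40 and DSF. How the share of all genes changed between the pairs was not counted. The highest value moved from Ppat (0.71) to Impdh1 (1.39) in the first and from Ppat (0.64) to Impdh1 (1.37) in the second. Gmps passed with replicates 3 and 4 in both (0.25 and 0.30), Paics with replicates 3 and 4 under IL-4+anti-CD40 and DSF (0.20), and Paics was lower with replicates 1 and 2 under LPS and DSF (-0.27). The calls of Adsl and Atic with LPS and DSF and of Pfas with IL-4+anti-CD40 and DSF were lost with unstimulated replicates 1 and 2 alone (0.049, 0.11 and 0.088), and that of Gart under IL-4+anti-CD40 and DSF with replicates 3 and 4 alone (-0.096, adjusted p = 0.24).

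The DSF effect differed between the stimuli for 1 member, against 14.9% of 15130 genes with a difference in either direction. Impdh1 fell less under LPS than under IL-4+anti-CD40, and the difference was 0.30 on the log2 scale (SE 0.091, adjusted p = 0.031, interaction term over 16 libraries). With IL-4+anti-CD40 replicates 1 and 2 only, 6 members had a smaller fall with LPS, and with replicates 3 and 4 only none did and Gart had a larger one (-0.24, adjusted p = 0.037). The members therefore gave no call of this kind that held in both pairs of libraries. The share of all genes called with each pair was not counted.

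The second experiment, with 1 library per condition and thus no replicate check and no test, gave larger ratios with DSF. Values are log2 ratios of TMM-scaled CPM with a prior count of 2. With LPS, 8 of 10 members were lower by 2-fold or more with DSF, against 19.5% of 14275 genes, and with IL-4+anti-CD40 8 were, against 20.3%. When genes averaging under 50 counts were left out, 6 and 7 members were, since Paics went to -0.97 under each stimulus and Impdh2 to -0.95 with LPS. The members' median log2 ratio was -1.69 and -1.76. Gart went from 172 to 24.1 CPM with LPS and from 214 to 27.5 CPM with IL-4+anti-CD40 (-2.83 and -2.96), and Pfas from 112 to 18.3 CPM and from 150 to 22.4 CPM (-2.60 and -2.74). These were again the lowest ratios of any member. Cad had -2.78 and -3.17 and Dhodh -2.11 and -2.86. Ppat (-2.00 and -1.87), Adsl (-2.08 and -1.95), Atic (-1.71 and -1.90), Gmps (-1.68 and -1.66), Impdh2 (-1.10 and -1.51) and Paics (-1.12 and -1.12) followed. Impdh1 (-0.53 and -0.70) and Adss (0.11 and 0.070) did not pass 2-fold, as Adss went from 168 to 181 CPM with LPS and from 166 to 174 CPM with IL-4+anti-CD40. The ratios of Adss turned to -0.20 and -0.17 with total counts. Unlike in the first experiment, Gart had a slightly lower ratio than Cad with LPS, and Pfas a lower one than Dhodh. Under IL-4+anti-CD40 both stayed above Cad. With 1 library per condition these orders were not tested. The DSF libraries held 310 to 3054 counts per member, 83 and 53 counts of Dhodh.

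With ibrutinib, in the same experiment and at the same dose, 0 of 10 members were lower by 2-fold. Such a fall was seen in 2.47% of genes with LPS and in 1.69% with IL-4+anti-CD40. At such shares, 0 of 10 says little about the members in particular. All 10 members had a ratio below 0 under both stimuli, from -0.47 to -0.064 with LPS and from -0.57 to -0.050 with IL-4+anti-CD40, with medians of -0.35 and -0.34 against 0.0094 and 0.0043 over all genes. Cad had ratios of -0.60 and -0.51 with ibrutinib, and Dhodh -0.18 and -0.21. Gart was at 137 CPM with LPS and ibrutinib and at 166 CPM with IL-4+anti-CD40 and ibrutinib. Paics and Adss had the ratios nearest to 0. Stimulation alone gave ratios above 0 for all 10 members, with medians of 0.85 and 1.09 against -0.0095 and -0.016 over all genes. Of them, 2 members were up by 2-fold or more with LPS, against 8.62% of genes, and 6 with IL-4+anti-CD40, against 10.7%.

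**Figure D4:**
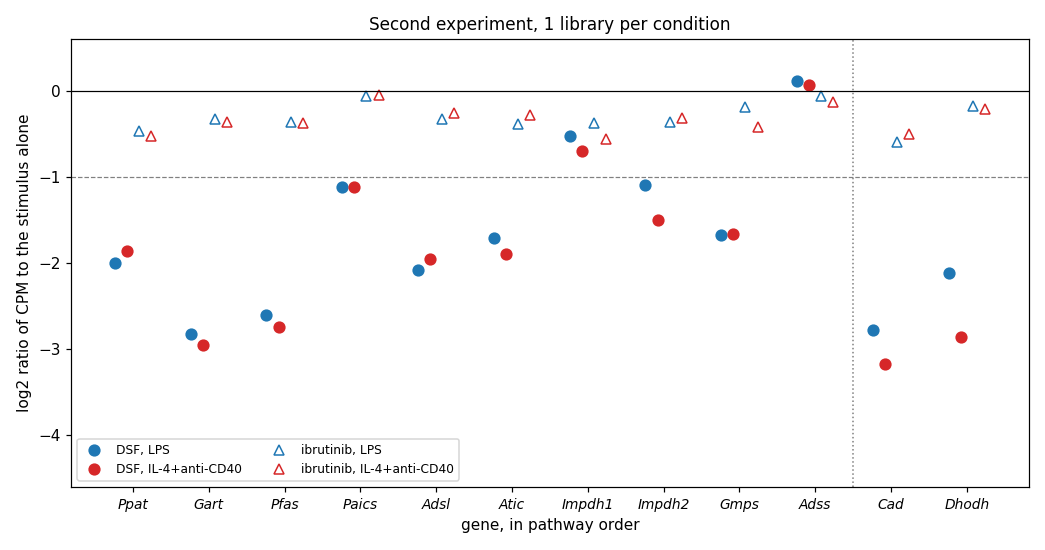
Log2 ratio of CPM with an inhibitor to CPM without it under the same stimulus, in the second experiment with 1 library per condition, genes in pathway order and Cad and Dhodh right of the dotted line. Filled circles are DSF, open triangles ibrutinib, blue LPS and red IL-4+anti-CD40, and the dashed line is 2-fold lower. With DSF 8 of 10 purine genes lie below the dashed line under each stimulus (19.5% and 20.3% of all genes). With ibrutinib none does, where only 2.47% and 1.69% of all genes do.

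Genes that feed or neighbour the pathway were counted in lists. The shares of all genes tested, given above, were 36% lower and 35.1% higher with DSF under LPS. Under IL-4+anti-CD40 they were 31.6% lower and 30.1% higher. Of 4 genes of PRPP supply, 3 fell with DSF under LPS and 4 under IL-4+anti-CD40 (median -0.67 and -0.52). Prps2, a PRPP synthetase, fell by 1.77 and 1.30, more than any purine gene with LPS, and the regulatory subunit gene Prpsap1 by 0.91 and 0.76. Stimulation had already lowered Prps2, by 0.62 and 1.17. Of 7 tested genes of one-carbon supply, which gives the formyl groups that GART and ATIC use, 4 and 5 fell and 1 rose. Mthfd1, the cytosolic source of formyl-tetrahydrofolate, fell by 1.26 and 1.38, whereas Mthfd2, its mitochondrial counterpart, rose by 0.48 and 0.15. Mthfd1l fell by 0.54 with LPS and Aldh1l2 by 0.90 with IL-4+anti-CD40. The rise of Mthfd2 under IL-4+anti-CD40 is no larger than the shift of -0.15 that total counts give the median gene.

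For interconversion the counts lay near these shares, and for salvage they did so under LPS. With IL-4+anti-CD40 the share of salvage genes that fell was above the 31.6% of all genes. Only 7 salvage genes were tested, so the counts say little about the lists. Of 7 salvage genes tested, 3 fell and 2 rose with LPS and DSF, and 4 fell and 1 rose with IL-4+anti-CD40 and DSF (median -0.22 and -0.28). Aprt, which recovers adenine, fell by 0.79 and 0.80, Dguok by 0.64 with LPS and Mtap by 0.67 with IL-4+anti-CD40. Pnp, which splits purine nucleosides, rose by 0.94 and 0.44, and Hprt, which recovers hypoxanthine and guanine, rose by 0.23 with LPS (0.024 with IL-4+anti-CD40, adjusted p = 0.81), close in size to the shift of -0.21 under total counts. Of 12 genes of nucleotide conversion and breakdown, 5 fell under each stimulus and 3 and 4 rose (median -0.13 and -0.020). Gda, a guanine deaminase, fell by 1.21 and 0.65, and the guanylate kinase gene Guk1 by 0.89 with LPS and the AMP deaminase gene Ampd2 by 0.68 with IL-4+anti-CD40. Ampd3 rose by 1.05 with LPS, Xdh by 0.69 with IL-4+anti-CD40, and Ak6 by 0.53 and 0.37. Of 3 regulators known to act on purine genes, Myc rose with both stimuli (3.65 and 2.41) and fell with DSF (0.44 and 0.63 on the log2 scale), Atf4 rose with both stimuli (1.00 and 1.25) and rose further with DSF (0.56 and 0.39), and Max had values of 0.025 and 0.022 with DSF, short of the threshold.

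Across the 20 libraries, Adsl, Impdh2 and Atic followed the common pattern of the members most closely. Likeness was the root mean square distance of a gene's centred log2 CPM from the members' median profile, which was 0.049 for Adsl and 0.067 each for Impdh2 and Atic, with a median of 0.61 over 15575 genes. The profile was built from the members, so their own distances are small in part by construction. Gart (0.43) and Adss (0.37) were the farthest of the members. The 5 nearest genes outside the pathway were Prmt7 (0.064), an arginine methyltransferase, Nup205 (0.065), a nuclear pore protein, Ruvbl2 (0.067), an ATPase of chromatin and assembly complexes, Kars (0.071), the lysyl-tRNA synthetase, and Erap1 (0.073), a peptidase that trims antigens. All points share the libraries and their scaling, so no p is given.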

How the data were processed

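RNA-seq libraries of mouse splenic B cells were analysed from the gene tables of both experiments. Per the labels, reads were mapped to mm10 with HISAT2 v2.0.5 and counted with featureCounts v1.5.0-p3. The authors deposited raw counts per gene and, made from these, FPKM values. The annotation release and strand setting are not given in the sources used here. FPKM served only for levels between genes.

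For the first experiment, edgeR 4.0.16 was run in R 4.3.3 on counts that passed filterByExpr, with TMM scaling and the quasi-likelihood test, and with Benjamini-Hochberg adjustment over all genes and a threshold of 0.05, after the scripts were tested on simulated data. For the fits relative to Cad or Dhodh, that gene's count replaced the library size. Alternatives were DESeq2 1.42.0, other scalings and filters, a fit of all 20 libraries, a replicate block, a minimum log2 fold change of 1, leaving out each library and, chosen after seeing the data, 1 pair of libraries in the split groups. The second experiment was described without a test, over genes averaging 10 counts or more.

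All 10 members, Cad and Dhodh are named, and of each pathway list up to 2 genes per direction with the largest change by DSF. The members and lists were chosen with earlier results of these data known.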

Additional observations from a re-analysis of the deposited data

Results flagged for a closer look

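Of 60 sets of 4 libraries (12 genes in 5 groups), 3 had a library apart from the other 3 by Dixon's test, and chance gives about 1 in 20. All were in the IL-4+anti-CD40 and DSF group. Paics was at 135 CPM in replicate 1 against 123 to 125, Impdh1 at 70.7 CPM in replicate 4 against 66.1 to 66.6, and Cad at 76.8 CPM in replicate 3 against 85.2 to 86.6. The libraries differed from gene to gene, and the falls of Paics and Impdh1 with DSF passed the threshold when any 1 library was left out.

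The DSF effect on Impdh1 was 0.30 higher on the log2 scale with LPS than with IL-4+anti-CD40 (interaction term, 16 libraries, edgeR adjusted p = 0.031). Leaving out 1 library gave 0.23 to 0.35, and the call was lost in 10 of 16 such fits.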

How the results depend on the processing

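The rise of all 10 members with each stimulus and the fall of 9 with DSF under each stimulus kept their counts in every alternative run, with 2 exceptions. The fit of all 20 libraries gave 8 falls under each stimulus, as Impdh1 did not pass. A minimum log2 fold change of 1 left 3 members higher with LPS and 7 under IL-4+anti-CD40, 2 lower with DSF under LPS and 2 under IL-4+anti-CD40, and 0 in each other comparison: 0 higher with DSF under LPS, 0 lower with LPS than with IL-4+anti-CD40, 0 higher and 0 lower for each stimulus with DSF against unstimulated B cells, and 0 with a DSF effect that differed between the stimuli. Total counts gave 6 members lower with LPS than with IL-4+anti-CD40, 0 higher with DSF under LPS, 2 higher and 3 lower for LPS and DSF against unstimulated B cells, 2 higher and 2 lower for IL-4+anti-CD40 and DSF, and 0 differing between the stimuli. Directions turned there for Dhodh with LPS (-0.027), for Adss with DSF (-0.029 and -0.095, and -0.20 and -0.17 in the second experiment) and, for LPS and DSF against unstimulated B cells, for Adsl (-0.15), Atic (-0.13) and Impdh2 (-0.010). DESeq2's size factors and its Wald test each gave 5 members lower with LPS than with IL-4+anti-CD40. The fit of all 20 libraries gave 0 higher with DSF under LPS and 0 differing between the stimuli.

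With only replicates 1 and 2 of the unstimulated and IL-4+anti-CD40 groups, 7 members were lower with LPS than with IL-4+anti-CD40, 2 were lower with LPS and DSF than unstimulated, 6 had a DSF effect that differed between the stimuli, and Adss turned to -0.016 with DSF under IL-4+anti-CD40. With only replicates 3 and 4, 2 were higher with LPS than with IL-4+anti-CD40, 1 was higher with DSF under IL-4+anti-CD40, 0 were lower with IL-4+anti-CD40 and DSF than unstimulated, and 0 had a smaller and 1 a larger fall by DSF under LPS. The cause was not tested, and the share of all genes called in these fits was not counted.

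Leaving out 1 library gave 2 to 5 members lower with LPS than with IL-4+anti-CD40 (5 without IL-4+anti-CD40 replicate 3 or 4), 3 to 6 higher with LPS and DSF than unstimulated (3 without unstimulated replicate 3), 0 to 1 lower with IL-4+anti-CD40 and DSF (0 without unstimulated replicate 1 or 2, or replicate 2, 3 or 4 of the DSF group), and 0 to 3 differing between the stimuli (3 without IL-4+anti-CD40 replicate 4). The smaller fall of Pfas than of Dhodh under LPS lost its edgeR call without LPS and DSF replicate 3 (adjusted p = 0.054).

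Same-numbered replicates did not in general deviate together. Their correlation ran from -0.059 to 0.22, and in 5 of 28 checks a library correlated best with its own number. There were 4 checks in each of 7 comparisons, which reuse libraries. For DSF under IL-4+anti-CD40, replicates 1 and 4 had 0.22 and 0.20, and replicates 2 and 3 had -0.036 and -0.030. The replicate block moved no count of members, and among the genes named only the rise of Dhodh with LPS lost its call (0.20, adjusted p = 0.10). Counting error limits Dhodh most, with 53 counts in 1 library of the second experiment.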
